A study of Mus musculus with 8 samples.

Results

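The genes described here are Parp9, Parp10, Parp11, Parp12 and Parp14, which encode ADP-ribosyltransferases known to be induced by interferon, and Dtx3l, which encodes the E3 ubiquitin ligase partner of PARP9. They were taken by symbol, and the choice was made with earlier results of these libraries known. All 6 were found among the 24346 gene symbols of each library. The data are RNA-seq libraries of live stromal cells sorted from the large intestine of 8 mice aged 12 weeks as podoplanin-positive cells lacking CD45, CD31, EpCAM and 7AAD signal. The 4 libraries titled WT came from Il10ra flox/flox mice without Cre, and the 4 titled cKO from Pdgfra cre; Il10ra flox/flox mice, so that the floxed alleles of the interleukin-10 receptor gene were present in both groups. Pdgfra-driven Cre acts in cells that express or have expressed that fibroblast gene, whereas the sort was on podoplanin, which other mesenchymal and lymphatic cells also carry. The series' title names type I interferon signalling in fibroblasts as the process under study, and the question here is whether the 6 genes differed between the genotypes.

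PARP enzymes take ADP-ribose from NAD and attach it to proteins or nucleic acids. PARP10, PARP11, PARP12 and PARP14 add ADP-ribose units singly, while PARP1, PARP2 and the tankyrases build chains. PARP9 binds DTX3L, and the pair couples ubiquitin ligation to ADP-ribosylation in interferon signalling and DNA repair. Interferons bind receptors whose JAK kinases activate transcription factors that bind the interferon-stimulated response element (ISRE) or the gamma-activated site (GAS) in promoters.

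All 6 genes had a higher mean in the cKO libraries, by 5.82% to 16.9%, and none passed the test across all genes. The groups overlapped for each of the 6. The median log2 difference over the 6 genes was 0.17, against -0.01 over all 11506 genes tested. Parp10, Parp12, Parp14 and Parp9 had the larger differences and Dtx3l and Parp11 the smaller ones. In each of the 6 genes cKO replicate 1 was the lowest of the cKO libraries.

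Parp9, Dtx3l and Parp14 lie together on chromosome 16 (mm10, the build named in the submitters' processing notes; positions from GENCODE M21). Parp14 occupies chr16:35832874-35871544 on the minus strand, Dtx3l chr16:35926511-35939151 on the minus strand and Parp9 chr16:35938470-35972605 on the plus strand. Dtx3l and Parp9 are arranged head to head and overlap by 682 bp, of which 458 bp are exonic in both genes, or 9.40% of the annotated exon bases of Parp9 and 8.0% of those of Dtx3l. Fragments from that stretch cannot be assigned to one of the genes without strand information, and strand-specific counting is not given in the sources used here. Parp12 (chr6:39086410-39118349, minus) and Parp11 (chr6:127446840-127494261, plus) share chromosome 6 but are far apart. Parp10 lies at chr15:76231174-76243441 on the minus strand and shares 205 exonic bp (4.80% of its exon bases) with Plec on the same strand, and Parp14 shares 110 (1.18%) with the predicted gene Gm49730. All 6 are annotated as protein coding.

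The RefSeq promoter table (GRCm38.p6, the same coordinates as mm10) held entries for Dtx3l, Parp11 and Parp12, and 4 start sites in all because Parp11 has an upstream and a downstream one. The 250 bases before each start were searched on both strands for the ISRE core GAAANNGAAA, a longer ISRE AGTTTCNNTTTC and the GAS TTCNNNGAA. The upstream Parp11 start alone held a match, and it held all of these motifs, overlapping one another. The longer ISRE lay at -46 to -35 from the start, the core on the opposite strand at -44 to -35, and the GAS at -37 to -29. Read on the other strand, the longer ISRE always contains the core, so those matches are the same element and not separate ones. Of the 32851 promoter entries, 2.98% held the core, 0.222% the longer ISRE and 7.02% the GAS. The sequences are shown so that the Parp11 starts and the GC-rich Parp12 promoter can be compared, 5′ to 3′ on the gene's strand, with the motif matches in capitals.
Parp11 upstream start, chr6:127446590-127446839, plus: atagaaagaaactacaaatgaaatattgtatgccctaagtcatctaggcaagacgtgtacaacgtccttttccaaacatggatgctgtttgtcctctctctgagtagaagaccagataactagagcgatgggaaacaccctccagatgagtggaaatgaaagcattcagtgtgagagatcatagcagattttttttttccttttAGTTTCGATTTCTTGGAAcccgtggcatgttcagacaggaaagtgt
Parp11 downstream start, chr6:127453377-127453619, plus, -250 to -8: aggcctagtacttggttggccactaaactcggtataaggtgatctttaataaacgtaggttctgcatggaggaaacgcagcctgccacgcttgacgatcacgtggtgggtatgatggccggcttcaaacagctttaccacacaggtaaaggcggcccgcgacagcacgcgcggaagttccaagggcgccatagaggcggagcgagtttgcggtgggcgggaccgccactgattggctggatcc
Parp12 start, chr6:39118350-39118472, minus, -123 to -1: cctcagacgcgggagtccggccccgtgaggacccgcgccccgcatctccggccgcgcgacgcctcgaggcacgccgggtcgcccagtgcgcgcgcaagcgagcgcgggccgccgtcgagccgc
Dtx3l start, chr16:35939207-35939277, minus, -250 to -180: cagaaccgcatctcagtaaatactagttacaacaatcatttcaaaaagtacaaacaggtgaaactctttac
The printed stretches are the parts without annotated exons. For Dtx3l the RefSeq start lies inside the GENCODE gene given above, so its window is partly within that gene. Of its 250 bases, 179 are in annotated exons of Dtx3l or Parp9. GC content over the 250 bases was 40.4% at the upstream Parp11 start, 57.6% at the downstream one, 52.8% for Dtx3l and 73.6% for Parp12, against a median of 52.4% over all entries. A match is a description of letters, and the absence of one says only that these letters are not in the window. FPKM sums all transcripts of a gene, so the Parp11 values below do not separate its start sites.

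The 8 libraries are described first as a whole. Each library listed 15815 to 16323 genes above 0, and correlations of log2 values between libraries ran from 0.965 to 0.989. The depth, read from the steps of low values, was about 17800000 fragments per library, with relative depths from 0.858 to 1.08. Il10ra, the floxed gene, had an FPKM of 0.842, 0.665, 0.614 and 0.403 in WT replicates 1 to 4 and 0.439, 0.273, 0.633 and 0.636 across cKO replicates 1 to 4, and because the labels do not name the floxed exons this sum over the gene does not check the genotypes. Pdpn, the gene of the sorted surface protein, was between 84.8 and 94.7 FPKM in the 8 libraries, while Cd3e was low (at most 0.836).

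Epcam, which the sort should remove, was at 2.72 to 4.02 FPKM in WT libraries and at 34.7, 11.6, 3.41 and 1.27 across cKO replicates 1 to 4. The summed FPKM of the 18 epithelial markers was 70.9 to 150 in WT and 55.9 to 1162 in cKO, highest in cKO replicate 1. The 13 myeloid markers summed to 82.3 to 114 in WT and 89.6 to 186 in cKO, with Ptprc at 2.49 to 3.98 and 1.99 to 4.15. The 12 lymphoid markers summed to 53.0 to 91.1 and 39.6 to 180. The 12 endothelial markers summed to 7.97 to 11.03 in WT and 11.4 to 29.1 in cKO, without overlap between the groups, with Pecam1 at 0.594 to 0.990 and 0.968 to 2.37. The 10 smooth muscle markers summed to 52.6 to 60.9 and 44.9 to 87.3, with Acta2 at 21.9 to 24.1 and 13.7 to 40.1. The 5 glial markers summed to 1.21 to 1.99 and 1.84 to 3.68, and no marker of these lists was at 0 in all libraries. A fit with the mean of the epithelial markers as a covariate is given below. The part of these cells, epithelium among them, in the differences described below was not otherwise tested. In bulk libraries fewer cells of a type cannot be told apart from less RNA per cell.

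**Figure D1:**
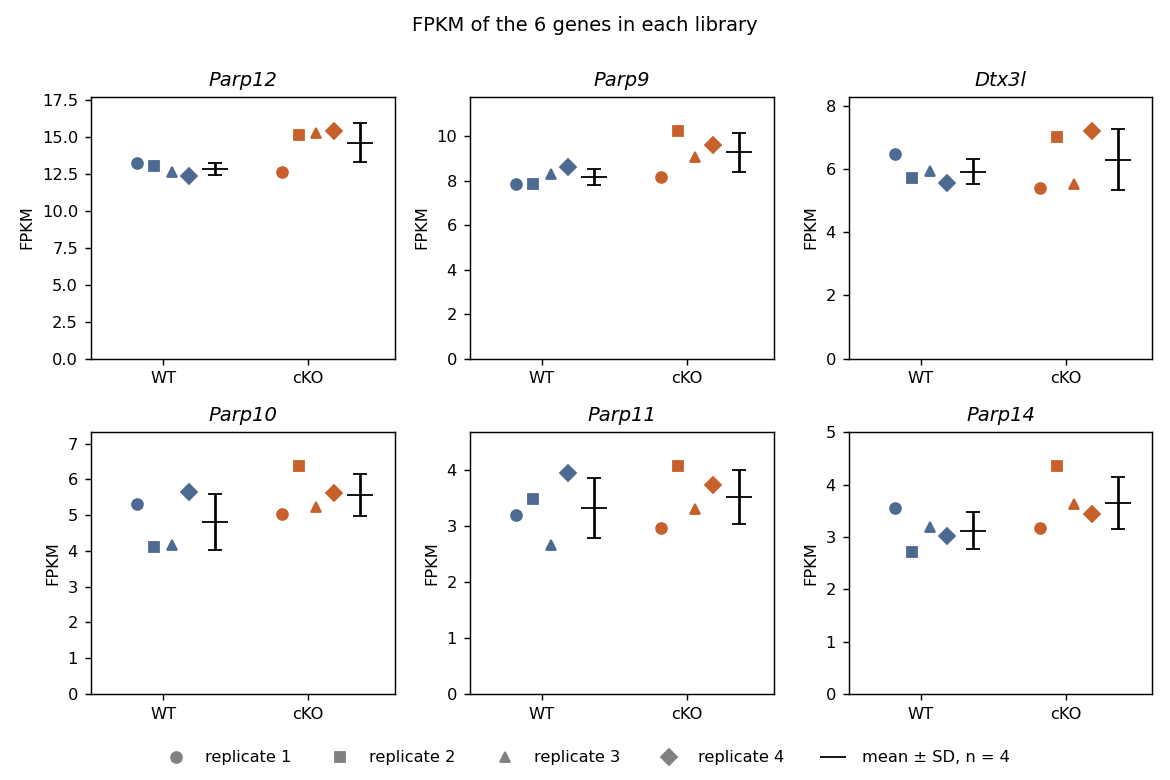
FPKM (y axis, from 0) of each gene in the 4 WT and the 4 cKO libraries (x axis); marker shapes are replicate numbers and the black bars mean ± SD (n = 4). In Parp12 and Parp9, 3 of the 4 cKO libraries lie above all WT libraries, and cKO replicate 1 (circle) is the lowest cKO library in all 6 panels.

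Dtx3l and Parp9 encode the ligase and its macrodomain partner. Parp9 had an FPKM of 7.87, 7.87, 8.32 and 8.62 in WT replicates 1 to 4 and of 8.18, 10.3, 9.09 and 9.59 across cKO replicates 1 to 4. Replicates 2, 3 and 4 of cKO lay above every WT library, and cKO replicate 1 lay among the WT values. Its means were 8.17 ± 0.369 and 9.28 ± 0.873 (SD, n = 4 each), a log2 difference of 0.16 (SE 0.08, 95% interval -0.01 to 0.33). limma gave an adjusted p = 0.897 over all genes, and the two-sided exact permutation test p = 0.0857.

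Dtx3l had an FPKM of 6.48, 5.71, 5.93 and 5.58 in WT replicates 1 to 4 and of 5.41, 7.04, 5.54 and 7.22 across cKO replicates 1 to 4. Replicates 2 and 4 of cKO were the highest of all 8 libraries, and replicates 1 and 3 of cKO the lowest. The means were 5.93 ± 0.397 and 6.30 ± 0.960 (SD, n = 4 each), a log2 difference of 0.07 (SE 0.10, 95% interval -0.16 to 0.29, limma adjusted p = 0.969, exact permutation p = 0.543). Without cKO replicate 4 the difference was 0.01, and without cKO replicate 1 it was 0.13.

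Because the products act as a pair, Parp9 was also set against Dtx3l within each library. The FPKM ratio was 1.21, 1.38, 1.40 and 1.55 in WT replicates 1 to 4 and 1.51, 1.46, 1.64 and 1.33 across cKO replicates 1 to 4. Parp9 exceeded Dtx3l in 8 of 8 libraries, and the ratio overlapped between the genotypes. The log2 ratio, with 1 added to each value, was 0.41 ± 0.12 in WT and 0.50 ± 0.11 in cKO (SD, n = 4 each), a difference of 0.09 (two-sided exact permutation p = 0.314). A change in the balance of the pair was therefore not detected with 4 libraries a group. The 458 bp that are exonic in both genes were not set apart in this ratio.

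Parp12 encodes a zinc-finger transferase that is found at the Golgi and in stress granules. It was the most abundant of the 6 genes. Its FPKM was 13.2, 13.1, 12.6 and 12.4 in WT replicates 1 to 4 and 12.6, 15.2, 15.3 and 15.4 across cKO replicates 1 to 4. The WT libraries lay within 1 FPKM of each other, 3 cKO libraries stood above them all, and cKO replicate 1 fell inside the WT range. The means were 12.8 ± 0.392 and 14.6 ± 1.34 (SD, n = 4 each), a log2 difference of 0.17 (SE 0.07, 95% interval 0.01 to 0.33). This was the one of the 6 genes with an unadjusted p under 0.05 in limma (p = 0.0388, adjusted p = 0.897; exact permutation p = 0.0857). With each library left out in turn, the unadjusted limma p was 0.0503 to 0.0989 in 7 of the 8 fits and 0.00218 without cKO replicate 1, and it was 0.0690 with the replicate number as a block.

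Parp14 encodes the largest of these transferases, a macrodomain protein first described as a cofactor of STAT6. Its FPKM was 3.55, 2.71, 3.20 and 3.02 in WT replicates 1 to 4 and 3.18, 4.35, 3.63 and 3.43 across cKO replicates 1 to 4. Replicates 2 and 3 of cKO were above all WT libraries, and the other cKO libraries were below WT replicate 1. The means were 3.12 ± 0.353 and 3.65 ± 0.504 (SD, n = 4 each), a log2 difference of 0.17 (SE 0.10, 95% interval -0.06 to 0.41, limma adjusted p = 0.903, exact permutation p = 0.143). Without cKO replicate 2 it was 0.10.

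Parp10 encodes a mono-transferase with ubiquitin-interaction motifs. Its FPKM was 5.31, 4.12, 4.16 and 5.64 in WT replicates 1 to 4 and 5.03, 6.37, 5.24 and 5.63 across cKO replicates 1 to 4. The WT libraries fell apart into a lower and a higher pair, and the higher pair lay among the cKO values. The means were 4.81 ± 0.784 and 5.57 ± 0.589 (SD, n = 4 each), a log2 difference of 0.18 (SE 0.11, 95% interval -0.06 to 0.43, limma adjusted p = 0.902, exact permutation p = 0.257).

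Parp11 encodes a small WWE-domain transferase reported to act on turnover of the type I interferon receptor. Its FPKM was 3.21, 3.48, 2.67 and 3.96 in WT replicates 1 to 4 and 2.97, 4.08, 3.31 and 3.73 across cKO replicates 1 to 4. The groups covered almost the same range, with 2 of 4 cKO libraries above the WT mean. The means were 3.33 ± 0.537 and 3.52 ± 0.482 (SD, n = 4 each), a log2 difference of 0.07 (SE 0.12, 95% interval -0.20 to 0.33, limma adjusted p = 0.975, exact permutation p = 0.629). Without WT replicate 3 the direction turned, to -0.01.

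Of the 6 genes, 0 were called, against 1 of all 11506 (0.00869%) in either direction. The called gene was the microRNA gene Mir5098, listed at 45.8 to 144 FPKM in WT and at 0 in all cKO libraries. How fragments were assigned to it was not examined. An unadjusted p under 0.05 with a higher cKO mean was found for 1 of 6, against 2.37% of all genes, and groups without overlap, higher in cKO, for 0 of 6, against 1.36%. A higher mean in cKO was found for 6 of 6, against 47.4%. The 6 genes were chosen with earlier results of these libraries known, so their common direction is not independent of that. The smallest two-sided p that 4 against 4 libraries allow in the exact test is 0.0286. Leaving out cKO replicate 1, the lowest cKO library in each of the 6 genes, raises every difference by construction. That library also had the highest epithelial sum. Without it, 2 of the 6 (Parp9 and Parp12) did not overlap between the groups, and the median difference was 0.22. The share over all genes was 3.20%, but it includes genes that were not lowest in that library, so the shares are not alike. Without cKO replicate 2 the median was 0.11. With the mean log2 value of the epithelial markers as a covariate in limma, the differences were 0.20 for Parp9, 0.18 for Parp10, 0.09 for Parp11, 0.23 for Parp12, 0.18 for Parp14 and 0.12 for Dtx3l, all with adjusted p of 0.582 or more.

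**Figure D2:**
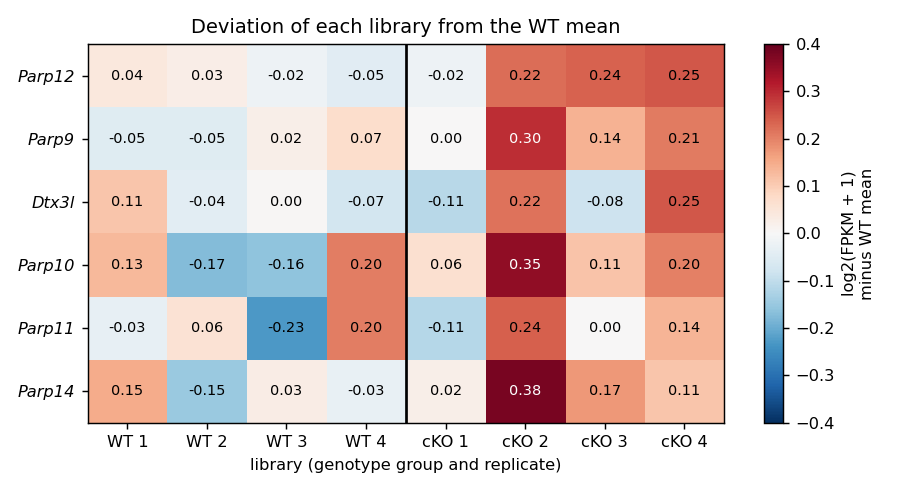
Each cell gives 1 library's log2(FPKM + 1) minus the WT mean of that gene (rows, genes by level; columns, libraries; red above and blue below the WT mean). All 6 genes are above the WT mean in cKO replicates 2 and 4, while cKO replicate 1 is between -0.11 and 0.06.

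Libraries differed from each other across several of the genes. In cKO replicate 2, 4 of the 6 genes (Parp9, Parp10, Parp11 and Parp14) had their highest value of all 8 libraries, and in cKO replicate 4 the other 2 (Parp12 and Dtx3l). By FPKM both libraries were above the WT mean in 6 of 6 genes, cKO replicate 3 in 4 and cKO replicate 1 in 3. Parp11 in cKO replicate 3 lay just below the WT mean by FPKM and just above it on the log2 scale of the plot. Among WT libraries the count by FPKM was 4, 2, 3 and 3 for replicates 1 to 4. The summed FPKM of the 6 genes was 39.7, 37.0, 36.9 and 39.2 in WT replicates 1 to 4 and 37.4, 47.2, 42.1 and 45.0 across cKO replicates 1 to 4. The epithelial sum of cKO replicate 2 was 581 and that of cKO replicate 4 was 55.9, the lowest of all 8. Apart from the fit with the epithelial markers as a covariate, given above, the part of epithelial cells in the values of these genes was not tested.

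Within the groups, the spread of these genes was near that of other genes of like level. The pooled SD on the log2 scale was 0.0967 for Parp9 and 0.0959 for Parp12, where genes within 1.5 times their mean FPKM had a median SD of 0.129 and 0.117. It was 0.139 for Parp14 against 0.163, and 0.146 for Dtx3l, 0.164 for Parp10 and 0.168 for Parp11 against 0.141, 0.148 and 0.163. From the estimated depth and the longest annotated transcript, roughly 640 to 950 fragments lay behind a Parp12 value, 430 to 660 behind Parp9, 460 to 680 behind Dtx3l, 310 to 580 behind Parp14, 210 to 390 behind Parp10 and 180 to 280 behind Parp11. At that depth and length, counting error alone in the library with the fewest fragments is about 7.47% of the value for Parp11 and 3.94% for Parp12, and it is larger if the depth is lower or shorter transcripts are used.

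Levels per transcript length ordered the 6 genes from Parp12 (mean over 8 libraries 13.7 FPKM) through Parp9 (8.72), Dtx3l (6.11), Parp10 (5.19) and Parp11 (3.43) to Parp14 (3.38). Parp12 was above Parp9 and Parp9 above Dtx3l in every library, without overlap of their ranges, and so was Parp10 above Parp11. Dtx3l exceeded Parp10 in 7 of 8 libraries, with overlapping ranges. Parp11 exceeded Parp14 in 3 of 8, and these neighbours did not differ beyond their spread. Among all genes tested, 59.9% had a lower mean FPKM than Parp12 and 21.7% a lower one than Parp14.

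**Figure D3:**
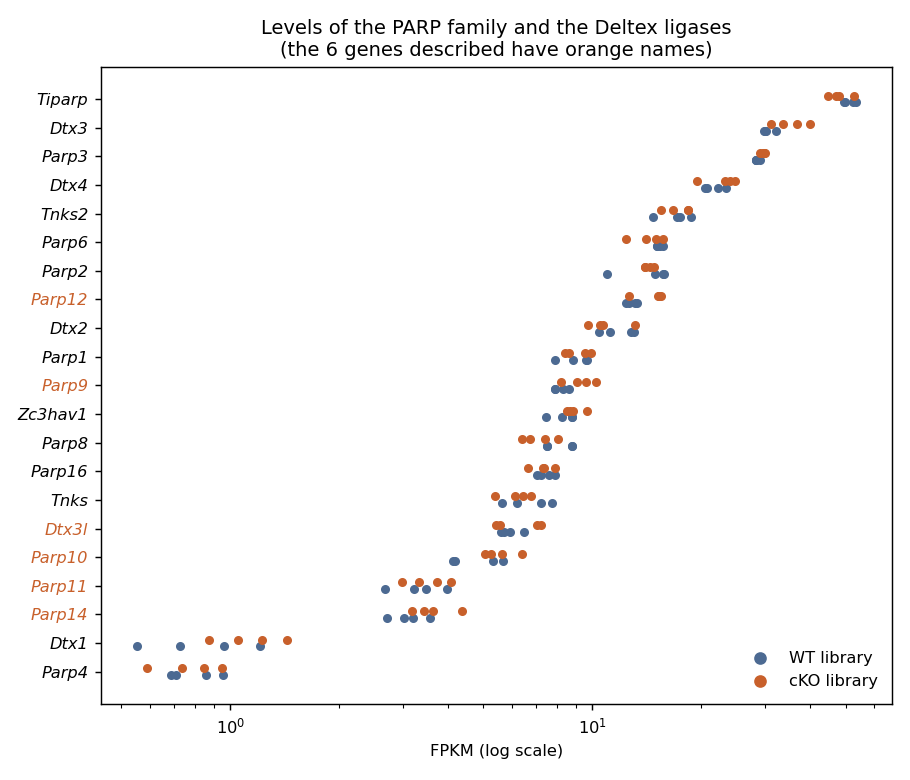
FPKM on a log scale (x axis) of the 16 PARP family genes and the 5 Deltex genes (y axis, by mean), each point 1 library. Tiparp is the highest of the PARP family, and Parp10, Parp11 and Parp14 take ranks 13 to 15.

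In the PARP family of 16 genes, Parp12 ranked 6 and Parp9 ranked 8 by mean FPKM, and Parp10, Parp11 and Parp14 ranked 13, 14 and 15. The most abundant member of the family was Tiparp (PARP7), which responds to the aryl hydrocarbon receptor, at 44.8 to 53.6 FPKM, and the least abundant Parp4, at 0.590 to 0.953. The 5 interferon-activated PARP genes together made up 16.3%, 15.6%, 15.6% and 17.4% of the summed PARP FPKM in WT replicates 1 to 4 and 17.0%, 19.9%, 17.6% and 19.0% across cKO replicates 1 to 4. These shares overlap through cKO replicate 1 and WT replicate 4. The summed FPKM of the family was 199 ± 4.45 in WT and 199 ± 7.95 in cKO (SD, n = 4 each).

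The other PARP genes showed no common direction. Of the 11, 10 passed the filter on low values (Parp4 did not), 5 were higher and 5 lower in the cKO mean, 0 were called, 0 had an unadjusted p under 0.05 in limma, and the median difference was -0.01. Parp8 was at 8.13 ± 0.741 FPKM in WT and 7.13 ± 0.739 in cKO (SD, n = 4 each; log2 difference -0.17), Tiparp at 51.3 ± 2.06 and 48.2 ± 3.27 (-0.09), and Parp6 at 15.3 ± 0.297 and 14.3 ± 1.44 (-0.10). Zc3hav1 (PARP13), the antiviral zinc-finger protein without transferase activity that interferon also induces, had a log2 difference of 0.09. Of the other Deltex ligases 3 of 4 were higher and 0 were called. Among them Dtx3 had 30.5 ± 1.05 FPKM in WT and 35.3 ± 3.75 in cKO (log2 difference 0.20, adjusted p = 0.897), Dtx1 0.861 ± 0.285 and 1.145 ± 0.239, and Dtx2 11.8 ± 1.24 and 10.99 ± 1.47. Dtx3 was the one of these with an unadjusted p under 0.05 in limma. Whether it differed more than Dtx3l was not tested.

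**Figure D4:**
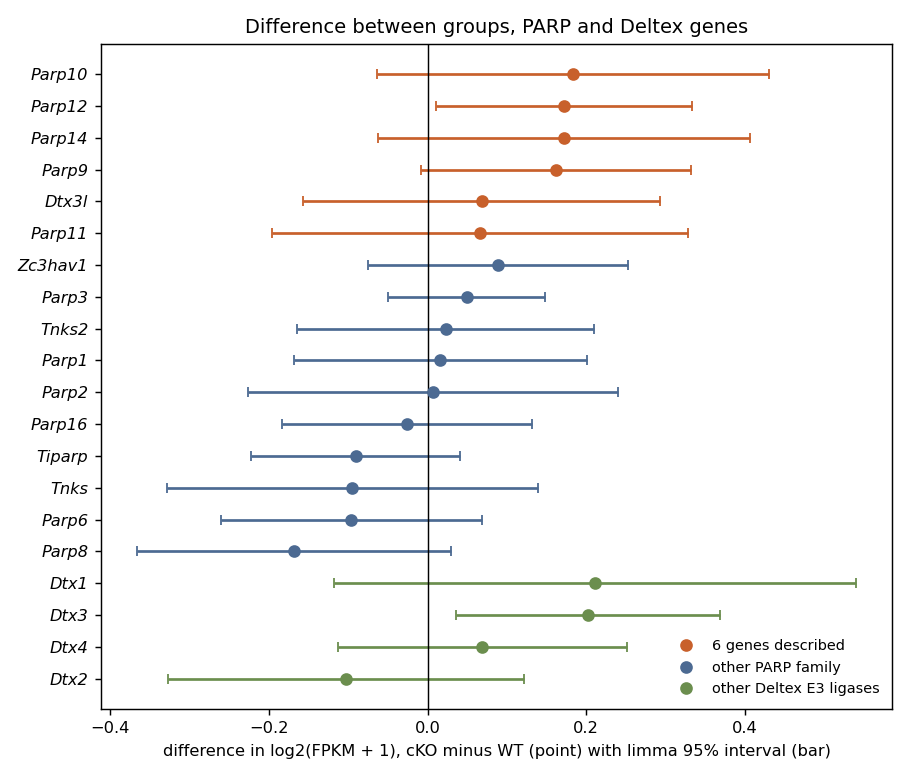
Difference in log2(FPKM + 1), cKO minus WT (points, x axis), with limma's 95% interval (bars) for the 6 genes, the 10 other PARP genes tested and the 4 other Deltex ligases (y axis). All 6 points lie above 0, and among them the interval of Parp12 alone does not reach 0.

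Genes that remove or read ADP-ribose and genes of NAD metabolism were read beside the transferases. Of 16 erasers and readers 15 were tested, 7 were higher and 8 lower in cKO, 0 were called, 0 had an unadjusted p under 0.05 in limma, and the median was -0.02. Chd1l, a chromatin remodeller that binds ADP-ribose chains, was at 6.41 ± 0.964 FPKM in WT and 5.48 ± 1.27 in cKO. The hydrolase genes Adprhl2 (19.9 ± 1.14 and 21.2 ± 1.82) and Oard1 (15.7 ± 1.31 and 16.9 ± 1.96) also overlapped between the groups (SD, n = 4 each). Of 13 NAD genes 9 were tested, 6 were higher, 0 were called, 0 had an unadjusted p under 0.05, and the median was 0.11. Nampt, the rate-limiting enzyme of NAD salvage, was at 9.15 ± 0.505 and 10.2 ± 0.641, with 3 of 4 cKO libraries above all WT ones (adjusted p = 0.897 in limma). Naprt was at 11.2 ± 0.771 and 12.4 ± 0.732 and Qprt at 8.14 ± 1.05 and 9.65 ± 1.12.

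The receptor, kinase and transcription factor genes of interferon signalling were less uniform than the 6 genes in their direction. Of 20 tested, 12 were higher and 8 lower in cKO, 0 were called, 1 had an unadjusted p under 0.05 in limma, and the median was 0.03. Usp18, the protease that dampens the type I receptor, was that gene, at 7.01 ± 0.628 FPKM in WT and 10.2 ± 1.45 in cKO without overlap. Stat2 was at 12.4 ± 1.39 and 14.2 ± 0.887 (SD, n = 4 each), with 3 of 4 cKO libraries above all WT libraries (adjusted p = 0.897 in limma). Unlike in the 6 genes, cKO replicate 1 was the highest cKO library in Stat2, at 14.8.

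Of 25 other interferon-induced genes, 22 passed the filter and 22 of these were higher in cKO, against 47.4% of all genes tested. In limma 0 were called, and 7 had an unadjusted p under 0.05 with a higher cKO mean, against 2.37% of all genes. Groups without overlap, higher in cKO, were found for 2 of the 22, against 1.36%. The median difference was 0.21, against 0.17 for the 6 genes. The genes with the lowest p are given. Rsad2 was at 1.11 ± 0.141 FPKM in WT and 2.24 ± 0.763 in cKO, and Oas2 at 1.82 ± 0.121 and 2.75 ± 0.666, both without overlap of the groups, and Bst2 at 70.7 ± 5.06 and 85.2 ± 12.1 (SD, n = 4 each). These genes were chosen with earlier results of these libraries known, and their common direction is not independent of that.

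The genes whose values ran most like the 6 across the libraries were found by Pearson's r with the mean of the 6 genes, each centred, over 8 libraries and 11500 other genes. Irgm2, an interferon-inducible GTPase, came first with r = 0.99 (Spearman's rho 0.98, and r = 0.99 within the groups). Its FPKM was 18.4, 13.9, 14.4 and 17.5 in WT replicates 1 to 4 and 15.0, 27.9, 20.5 and 22.8 across cKO replicates 1 to 4, so that cKO replicate 1 lay below WT replicates 1 and 4. Next were Chst10, a sulfotransferase gene (r = 0.98, rho 0.95), and the GTPase genes Iigp1 (r = 0.94, rho 0.95) and Ifi47 (r = 0.94, rho 0.93), followed by Dctn6, which encodes a dynactin subunit (r = 0.94, rho 0.90). The GTPases belong to a multigene family whose copies can share fragments. These values are a description without a test, since the genes were picked as the highest and all share the same 8 libraries and their depth.

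**Figure D5:**
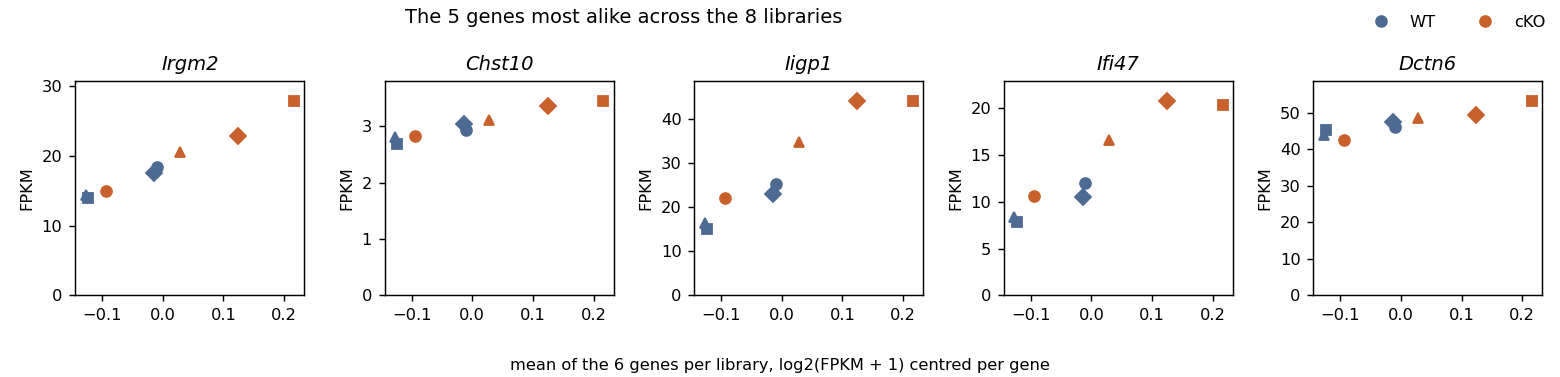
FPKM (y axes, from 0) of the 5 genes most alike, against the mean of the 6 genes per library (x axis, centred log2 scale); colours are genotype and marker shapes replicate numbers as in the plot of FPKM by library. cKO replicate 2 is at the right of each panel, at 27.9 FPKM for Irgm2, and cKO replicate 1 lies among the WT libraries along the x axis.

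Iigp1 had 19.98 ± 4.98 FPKM in WT and 36.3 ± 10.4 in cKO (log2 difference 0.81), and Ifi47 9.66 ± 1.93 and 17.1 ± 4.70 (0.74), whereas the 6 genes differed by 0.07 to 0.18 (SD, n = 4 each). In Iigp1 and Ifi47 cKO replicate 4 was the highest library and cKO replicate 2 the next, and cKO replicate 1 lay inside the WT range. Chst10 was at 2.87 ± 0.155 and 3.19 ± 0.281, and Dctn6 at 45.7 ± 1.45 and 48.5 ± 4.40. None of the 5 was called in limma (adjusted p = 0.897 to 0.931).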

How the data were processed

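RNA was measured in 8 libraries, 1 per mouse per the series' design text, from full-length SMART-Seq HT cDNA per the labels' protocols. The authors deposited FPKM values per gene symbol (fragment counts scaled by transcript length and library size). The submitters' processing notes name the build mm10 and the tools Cufflinks 2.2.1 with Cuffdiff, Bowtie2 2.3.5.1, TopHat2 2.1.1 and SAMtools 0.1.18. Settings and annotation were not given in those sources. FPKM falls when other genes take a larger share of a library.

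The 11506 genes whose mean FPKM reached 1 were tested as log2(FPKM + 1), which understates changes of low genes, with limma 3.58.1 in R 4.3.3 (trend, Benjamini-Hochberg over all genes, called under 0.05). Single values were tested by exact permutation (70 arrangements; scipy 1.17.1). Il10ra was fitted without the filter. The procedure was checked on simulated data with shifts larger than the differences of the genes described, so the check does not cover differences of their size. P-values measure the spread between these mice.

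Depth was estimated from low values: 37.7% to 42.2% of genes under a mean FPKM of 0.3 lay on whole-number steps between libraries within 0.002 on the log2 scale (0.428% to 0.843% at other offsets), and 43 long genes with 1 transcript gave 17800000 fragments (quartiles 12400000 and 17900000). Since most values were off the steps, no count test was run.

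Members and lists were chosen with earlier results of these data known. Named genes were the 6, Il10ra, the called or else the 3 lowest-p genes of each list, the first marker of each cell type and the 5 genes most alike. Some genes that this rule names are not reported here. Mir5098, Zc3hav1 and Parp4 were named after their values were seen. Alternatives covered pseudocounts, filters, scalings, eBayes settings, array weights, an epithelial covariate, the replicate block and each library left out.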

Additional observations from a re-analysis of the deposited data

Results flagged for a closer look

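In groups of 4, values were examined for a lowest or highest library far from the others (its gap to the nearest other library, as a share of the group's range, above Dixon's 95% limit), which chance gives in about 1 of 20 groups. Of 78 groups examined 4 stood out, close to the 3.90 that chance gives. Parp12 was at 12.6 FPKM in cKO replicate 1, against 15.2 to 15.4 in the other cKO libraries. Dtx3 was at 32.0 FPKM in WT replicate 4, against 29.8 to 30.1 in the other WT libraries. Qprt was at 9.72 FPKM in WT replicate 3, against 7.53 to 7.72 in the others. Stat2 was at 12.9 FPKM in cKO replicate 3, against 14.6 to 14.8 in the others.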

How the results depend on the processing

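None of the 6 genes was called under any alternative run, with adjusted p from 0.442 (Parp12 without cKO replicate 1) upward. With libraries left out in turn the log2 differences ran from 0.12 to 0.21 for Parp9, 0.13 to 0.25 for Parp10, -0.011 (without WT replicate 3) to 0.13 for Parp11, 0.15 to 0.24 for Parp12, 0.10 to 0.22 for Parp14 and 0.01 to 0.13 for Dtx3l, and the number of genes called from 1 to 4: 3 without WT replicate 3, 4 without cKO replicate 1, 2 without cKO replicate 2. Under the 3 other scalings all 6 genes stayed higher in cKO, lowest in Parp11 with quantile normalization (0.03). Parp11 and Parp14 lie under a minimum mean FPKM of 5 and have no value there. Of the other named genes, Epcam turned to -0.19 with the epithelial covariate, which its own list makes up, and Ptprc, at -0.04 with all libraries, ran from -0.14 to 0.12 with libraries left out, turning higher without WT replicate 1 (0.03), WT replicate 4 (0.01) or cKO replicate 3 (0.12); the cause was not tested. The samples share only a replicate number: same-numbered libraries deviated together by correlations of 0.0182 to 0.0912, and 1 of 8 libraries correlated best with its own number. With the replicate block 1 gene was called as without it, the Parp12 difference was 0.17 (limma adjusted p = 0.898), and the log2 ratio of Parp9 to Dtx3l differed by 0.09 (exact sign-flip permutation p = 0.375). No adjusted call of the 6 genes changed with the block, while the unadjusted limma p of Parp12 rose from 0.0388 to 0.0690. Of the 6 genes, Parp11 and Parp10 rest on the fewest fragments.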
